A study of Rattus norvegicus with 11 samples.

Results

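Diabetes was compared with its absence in the renal cortex of sham-operated rats, on 6 of the 11 arrays of the series. These were the 3 arrays labelled Control+Sham and the 3 labelled DM+Sham, and the other 5 arrays, which carry RNA of rats with Roux-en-Y gastric bypass, were not used in the comparison. All rats were Sprague Dawley, an outbred laboratory strain. DM+Sham rats had been made diabetic with streptozotocin, which destroys pancreatic beta cells, as a model of type 1 diabetes. They were operated on 4 weeks later and the cortex was taken 4 weeks after that. Control+Sham rats went through the same sham operation without diabetes. The sources used here give neither sex nor age, and nothing in the labels says that the 3 samples of a group came from separate animals, so the p-values measure the spread between these samples, which may be technical. TRIzol-extracted RNA was labelled with the dye Cy3 and measured on rat arrays of the 4 x 44K format, with 1 sample on each.

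In the renal cortex, cells of the proximal tubule reabsorb the filtered glucose, amino acids and phosphate and secrete organic ions, and cells of the distal nephron adjust the excretion of sodium, calcium, acid and ammonium. Lack of insulin raises the glucose load on the proximal tubule, shifts fuel use towards fatty acids and ketone bodies and adds an acid load. Since the study's title links diabetic nephropathy to NADPH synthesis and to AMPK (the AMP-activated protein kinase, an energy sensor), enzymes that make NADPH and the subunits of AMPK were read as a group of their own.

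A level below is the log2 of the spot signal minus the 75th percentile of the same array. A level is compared only between arrays for the same probe, never between genes. Values of a group are in the order of replicates 1, 2 and 3, and a difference is DM+Sham minus Control+Sham, with the standard error (SE) and the adjusted p of limma. The words rose, fell and called are kept for genes that met an adjusted p under 0.05 with each of 3 scalings of the arrays (75th percentile, median and quantile), always with the same sign.

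The 75th percentile of the signal lay between 864 (Control+Sham 2) and 2487 (Control+Sham 3), and 77.7% to 90.5% of the probes were well above background. DM+Sham 2 and 3 differed by a spread of 0.0295 on the log2 scale, less than the noise between repeated spots of an array, and were counted as 1 sample, so the comparison rests on 3 Control+Sham samples and 2 DM+Sham samples. Control+Sham 1 and 2 differed by 0.138, more than that noise, and were kept apart. Their spot residuals, a spot's deviation from the mean of its probe, correlated at 0.774, against 0.976 for DM+Sham 2 and 3 and 0.35 to 0.489 for the other pairs within a group. With these arrays averaged as well, 864 genes were called in place of 3562. The other 4 pairs within a group differed by 0.185 to 0.267, and the 9 pairs between the groups by 0.456 to 0.545. Precision is limited by how few arrays there are. All 20 markers of the proximal tubule lay well above background on all 6 arrays. Their summed level, on a linear scale relative to the 75th percentile, was 466 to 681 in Control+Sham and 571 to 679 in DM+Sham.

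Of 23779 genes and unnamed probes tested, 3562 (15%) changed, 1678 of them (7.06%) higher and 1884 (7.92%) lower in DM+Sham. Of these, 2253 have a gene symbol here and 1309 do not. At least 2-fold changes numbered 1490 (6.27%), at least 4-fold 391 and at least 16-fold 79. None of the 3562 had overlapping arrays between the groups, beside 55.5% of all genes whose groups did not overlap. The number of calls depended on which arrays were used. Without Control+Sham 1 it was 631, without Control+Sham 2 it was 954, and without DM+Sham 1 it was 1995, whereas without Control+Sham 3 it was 3959. Leaving out DM+Sham 2 and 3 together gave 912 calls. Of the scan days, 2 held both groups, with DM+Sham 1 beside Control+Sham 2 and DM+Sham 2 beside Control+Sham 3. Since the arrays of a called gene did not overlap, its direction within these days was fixed beforehand and tests nothing. The fall of Slco1a1, described next, was -9.23 and -9.0 within them. With the scan day as a block, which leaves 1 residual degree of freedom, limma called 0 genes, with 4777 at an unadjusted p under 0.05.

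**Figure D1:**
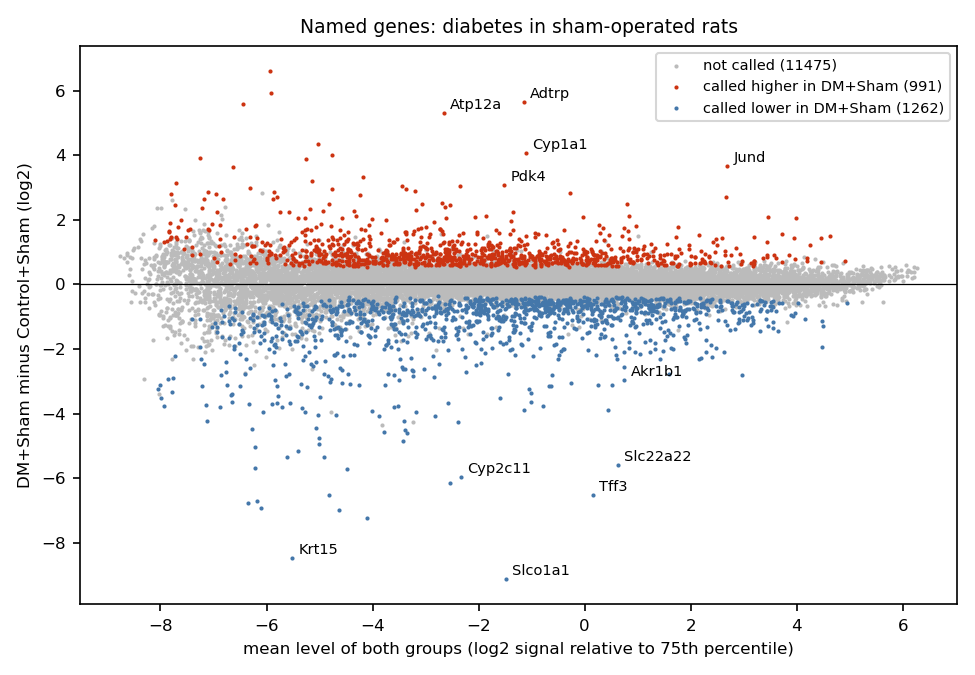
Log2 difference between DM+Sham and Control+Sham against the mean level of both groups for each named gene, with genes called higher in red, genes called lower in blue and all others in grey. Among the named genes well above background on all 6 arrays, the differences run from -9.11 (Slco1a1) to 5.65 (Adtrp).

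The largest falls were in transporters, secreted proteins and epithelial genes. Slco1a1, a transporter that takes up organic anions such as steroid conjugates and bile acids, was at 3.03, 3.05 and 3.12 in Control+Sham and at -6.18, -5.88 and -5.94 in DM+Sham. It fell 554-fold (log2 difference -9.11, SE 0.11, adjusted p = 0.00023), the largest measured difference of any named gene. Slc22a22, another organic anion transporter of the kidney, went from 3.43, 3.58 and 3.27 to -2.24, -2.07 and -2.11, a 48.1-fold fall. Cyp2c11, a cytochrome P450 known as the main male-specific form of rat liver, went from 0.60, 0.72 and 0.66 to -5.22, -5.40 and -5.40 (-5.97, SE 0.09). Gc, which encodes the vitamin D binding protein, stood at 0.59, 0.55 and 0.48 against -5.52, -5.69 and -5.75 (-6.16, SE 0.10). Tff3, a trefoil peptide secreted by mucosal and tubular epithelium, stood at 3.43, 3.53 and 3.29 against -3.10, -3.16 and -3.10 (-6.53, SE 0.10). In each of these 5 genes the 3 arrays of a group lay close together and far from the other group.

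Krt15, a keratin of basal epithelial cells, was at -1.22, -1.43 and -1.19 in Control+Sham and was not well above background on any DM+Sham array, which gives a fall of at least 96.5-fold. Such a bound sets the dim arrays at the lowest signal that counts as well above background. Zp2, a protein of the egg coat, was at least 37.4-fold lower, Svs1, a seminal vesicle secretory protein, at least 32.9-fold, the olfactory receptor Or52e51 at least 29.9-fold and the annexin Anxa8 at least 22.7-fold. The uroplakin Upk2 (128-fold lower, SE 0.26 on the log2 scale) and the growth factor carrier Fgfbp1 (-6.51, SE 0.26) were well above background on 1 of 3 DM+Sham arrays. Gldn, which encodes gliomedin, fell by 7.25 with the widest error of the group (SE 0.84), since DM+Sham 1 was at -9.10 and DM+Sham 2 and 3 at -6.40 and -6.33. The secreted ligand Wnt2b (-5.71, SE 0.30) and the serpin Serpinb5 (-5.36, SE 0.15) complete the 15 largest falls.

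Of the largest rises, those measured on all 6 arrays were Adtrp, Atp12a, Cyp1a1, Jund and Cyp4f4. Adtrp, a membrane hydrolase of lipid esters, went from -4.21, -3.97 and -3.74 to 1.61, 1.76 and 1.74, a 50.3-fold rise (5.65, SE 0.17, adjusted p = 0.0007). Atp12a, the catalytic subunit of the colonic type of H,K-ATPase, which secretes acid and takes up potassium in the collecting duct, was at -5.30, -5.36 and -5.26 against -0.14, 0.13 and 0.12 (5.30, SE 0.11). Cyp1a1, the classic target of the aryl hydrocarbon receptor, stood at -3.26, -3.25 and -2.90 against 1.34, 0.55 and 0.50 (4.07, SE 0.29). For Cyp1a1 the DM+Sham 1 array was the highest of its group, yet the groups stayed apart by far more than that spread. Cyp4f4, which oxidises leukotrienes and fatty acids, rose by 3.32 (SE 0.32).

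Several of the largest rises started from very low signals. Kprp, a proline-rich protein of keratinocytes, was not well above background on any Control+Sham array and was at least 22.4-fold higher in DM+Sham. Smr3b, a salivary gland protein, was at least 17.7-fold higher, the protease gene Senp17 at least 11-fold and the methyl-CpG binding family member Mbd3l1 at least 3.51-fold. Inhbc, an inhibin beta subunit, rose by 4.01 (SE 0.29) and the olfactory receptor Or52z12 by 3.64. Kcnn1, a calcium-activated potassium channel, rose by 3.89 and its second probe differed by 1.19. The brighter probe of Enthd1 was not well above background on any Control+Sham array and was at least 17.9-fold higher in DM+Sham, while its other probe differed by -0.73, so its direction depends on the probe.

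**Figure D2:**
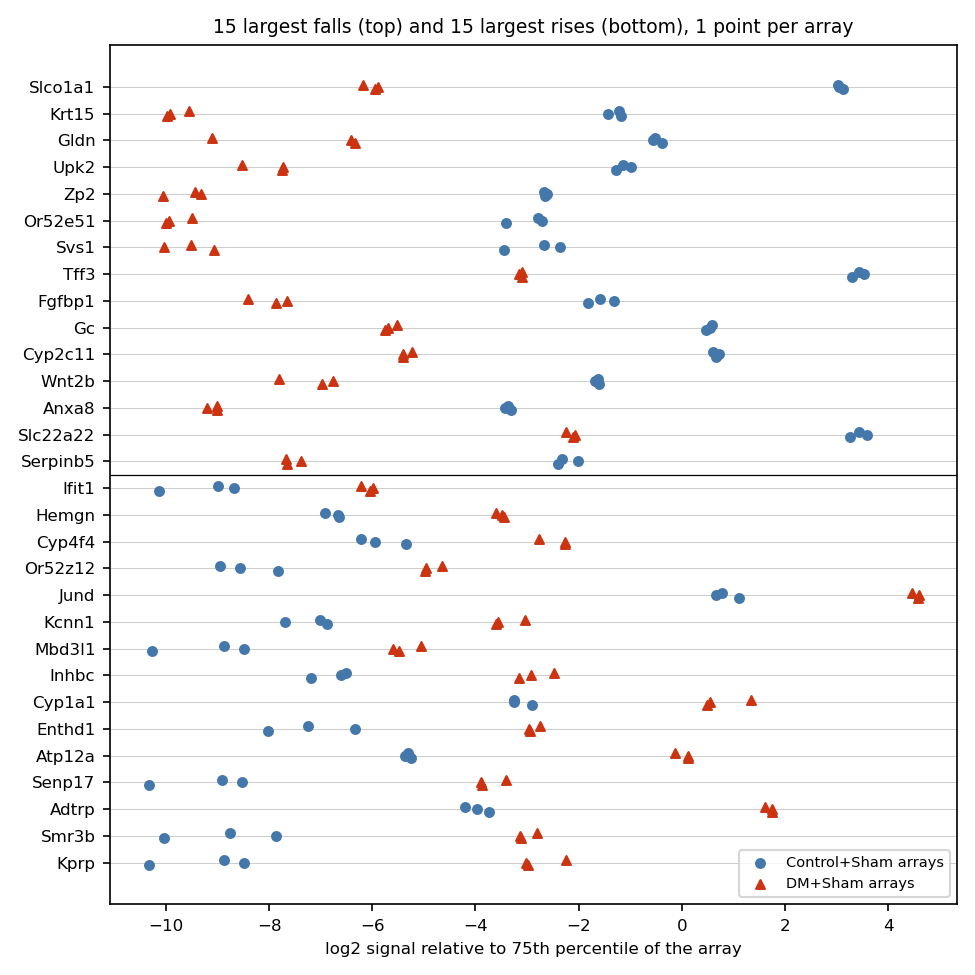
Level of the 15 genes with the largest falls and the 15 with the largest rises, 1 point per array, on a log2 scale relative to the 75th percentile of the array (blue circles, Control+Sham; red triangles, DM+Sham). Genes were chosen only where the 3 circles and the 3 triangles are separate, and for Slco1a1 these lie at about 3.05 and -5.94.

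Some members of the list of glucose transporters and related sugar and inositol carriers rose. Of 13 tested, 3 rose and none fell, or 23.1% beside 15% called and 7.06% higher over all genes. Their median difference was 0.45 beside 0.06 over all genes. Slc5a10, a sodium-coupled carrier of mannose and fructose, was at 1.01, 0.89 and 1.06 against 2.40, 2.51 and 2.53 (1.47, SE 0.09, adjusted p = 0.0025). Slc5a1 (SGLT1), which reabsorbs the glucose left in the late proximal tubule, stood at -2.26, -2.23 and -2.07 against -1.38, -1.09 and -1.09 (0.95, SE 0.13). The inositol carrier Slc2a13 rose by 0.84. Slc5a2 (SGLT2), which reabsorbs most filtered glucose, overlapped between the groups at 5.17, 5.28 and 4.94 against 4.89, 5.01 and 5.0 (-0.18, adjusted p = 0.37). The facilitative carriers Slc2a1 (0.16), Slc2a2 (0.05) and Slc2a5 (-0.15) did not pass the test. Only 1 of the 3 calls stayed without Control+Sham 1 or without Control+Sham 2.

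Gluconeogenesis, which the proximal tubule shares with the liver, had 3 of 27 genes higher and 1 lower, which at 14.8% is close to the 15% called over all genes. Fbp2, a fructose bisphosphatase, rose by 1.05, the dicarboxylate carrier Slc25a10 by 0.91 and the coactivator Ppargc1a by 0.62, whereas the malate dehydrogenase Mdh1 fell by 0.54. The key enzyme Pck1 was at 4.01, 3.85 and 3.63 against 4.45, 4.11 and 4.10 (0.45, SE 0.17, adjusted p = 0.13), and neither G6pc1 (0.04, its second probe at -0.41) nor Fbp1 (0.41, SE 0.40) passed the test. In glycolysis 3 of 37 genes rose and 5 fell, or 21.6% beside 15% called over all genes. Pdk4, the kinase that shuts off pyruvate dehydrogenase when fatty acids are burned, was at -3.02, -3.06 and -3.10 against -0.03, 0.05 and 0.09, an 8.45-fold rise (3.08, SE 0.08, adjusted p = 0.00054). Pklr, the liver and kidney form of pyruvate kinase, fell by 1.42 (SE 0.07). Pfkfb3, which makes the activator of phosphofructokinase, fell by 1.36, with its second probe at -0.24. Gapdh, a common reference gene, rose by 0.80, with 2 other probes at 0.26 to 0.71. Without Control+Sham 1 none of the 4 calls in gluconeogenesis stayed and 2 of the 8 in glycolysis, and without Control+Sham 2 the numbers were 0 and 3.

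The polyol pathway reduces glucose to sorbitol and oxidises it to fructose. Its first enzyme, aldose reductase (Akr1b1), was at 2.18, 2.08 and 2.43 against -0.88, -0.59 and -0.59, a 7.79-fold fall (-2.96, SE 0.16, adjusted p = 0.0018). The related reductases Akr1b8 (-1.09) and Akr1b10 (-1.72) fell too, which made 3 lower and 0 higher of 14 genes. These calls were 21.4% of the list, beside 15% called and 7.92% lower over all genes. Sord, the second enzyme, was at -0.50 (adjusted p = 0.045) and was not called under all 3 scalings, and the ketohexokinase Khk was at 0.55 (SE 0.30). Akr1b1 is also abundant in the inner medulla. Of the 10 inner medulla markers with a probe, Akr1b1 itself included, 3 fell and none rose, with a median of -0.27. Their summed level, of which 1 marker shared with principal cells made the largest part, was 80.5 to 113 in Control+Sham and 101 to 132 in DM+Sham. The part of inner medulla in the fall of Akr1b1 was not tested. Of the 3 polyol calls, 1 stayed without Control+Sham 1 or Control+Sham 2.

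Of 15 enzymes that make NADPH, 3 fell and none rose, or 20% beside 15% called and 7.92% lower over all genes. Their median difference was -0.03. Malic enzyme Me1 was at 3.87, 3.74 and 3.88 against 3.07, 3.23 and 3.23 (-0.68, SE 0.10, adjusted p = 0.014), with a second probe at -1.20. The cytosolic isocitrate dehydrogenase Idh1 stood at 3.33, 3.34 and 3.22 against 2.66, 2.73 and 2.73 (-0.60, SE 0.08), and the mitochondrial folate enzyme Mthfd2 fell by 0.77. These falls were below 2-fold. Their groups did not overlap, which held for every called gene and for 55.5% of all genes, so it adds nothing to the calls. The mitochondrial isocitrate dehydrogenase Idh2 was at 0.29 (SE 0.28) and was not called. Of 12 pentose phosphate genes limma called 0, with 4 at an unadjusted p under 0.05 and 1 called with the 75th percentile alone, and the differences included Pgls at 0.39 and Tigar at -0.32. No probe carried the symbol Pgd here. None of the 3 calls stayed without Control+Sham 1, without Control+Sham 2 or without DM+Sham 1.

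Among genes of AMPK and its regulators 4 of 31 rose and 2 fell, or 19.35% beside 15% called over all genes. Their median was 0.06, the same as over all genes. Prkaa2, the catalytic alpha-2 subunit, was at -0.77, -0.77 and -0.66 against -1.27, -1.22 and -1.21 (-0.51, SE 0.08, adjusted p = 0.017). Prkaa1 (-0.06), Prkab1 (0.05) and Prkag1 (-0.16) were not called. Of the kinases that activate AMPK, Stk11 (LKB1) rose by 0.98 (SE 0.07) and Camkk1 by 0.88, its second probe being at 0.19, while Camkk2 fell by 0.78. Acacb, the acetyl-CoA carboxylase that AMPK phosphorylates at the mitochondrion, rose by 1.09 (SE 0.18). Nox4, the NADPH oxidase of the tubule, was at 0.38, 0.39 and 0.29 against -1.53, -1.49 and -1.51, a 3.65-fold fall (-1.87, SE 0.08, adjusted p = 0.0012). It was the only call among 14 genes of NADPH oxidases and stayed called without each array in turn. The other oxidase subunits Cyba (-0.11) and Cybb (0.06) did not pass. None of the AMPK calls stayed without Control+Sham 1 or without Control+Sham 2.

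Of 45 antioxidant genes 4 rose and 3 fell, and this share of 15.6% is close to the 15% over all genes. Sod3, the extracellular superoxide dismutase, rose by 1.22 (SE 0.07), the glutathione transferases Gstm1 and Gstm2 by 1.23 and 1.19, and the glutathione reductase Gsr by 0.72. The transferase Gstp1 fell by 1.07, the peroxiredoxin Prdx4 by 0.68 and the cystine carrier Slc7a11 by 0.87. Probes of the Gstm family may cross-hybridise, so these 2 values may not be separate. Of these 7 calls 0 stayed without Control+Sham 1 and 4 without Control+Sham 2.

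**Figure D3:**
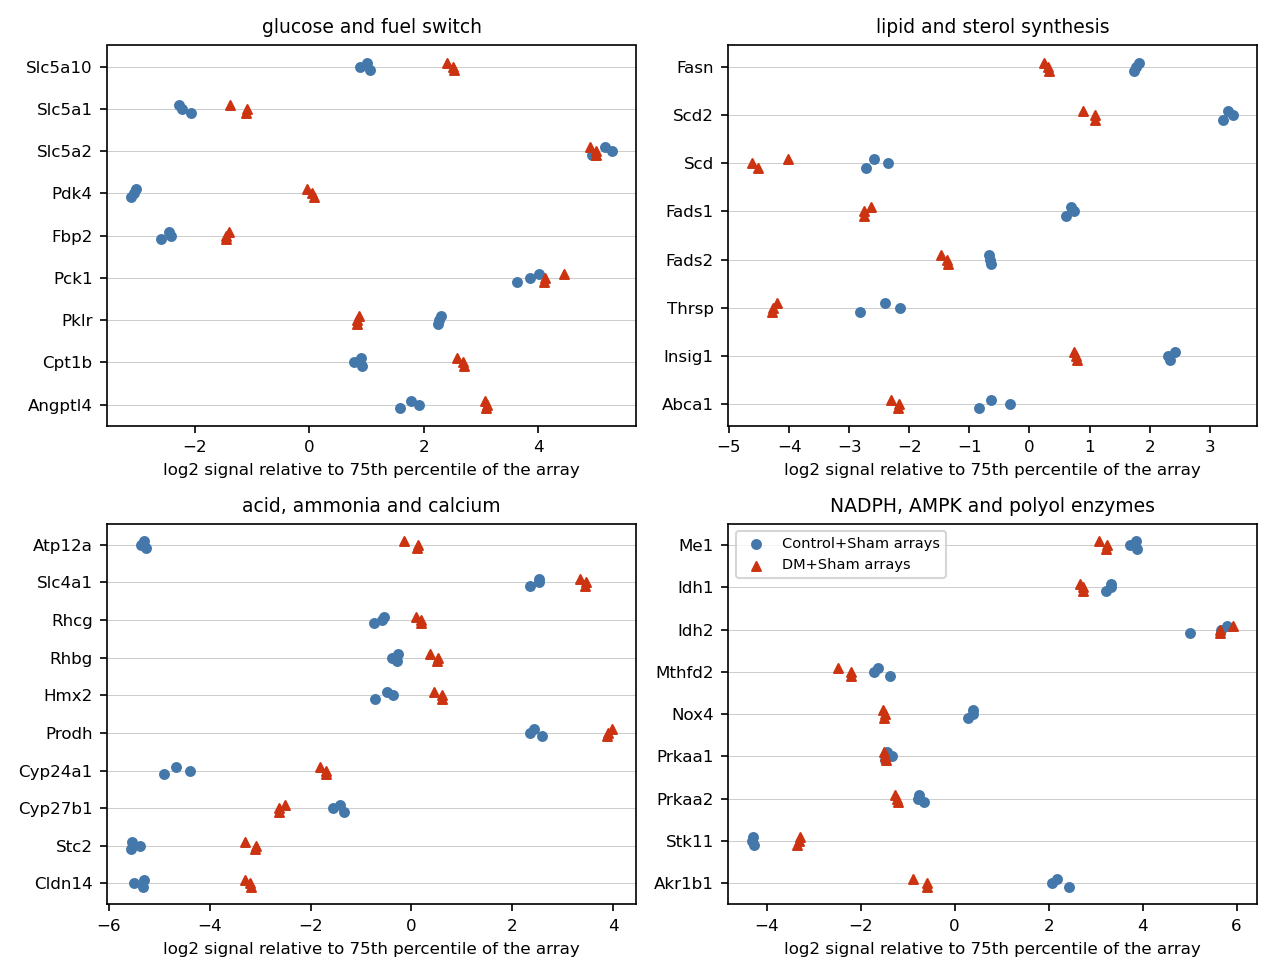
Level of 36 genes of fuel use, lipid synthesis, acid and calcium handling and NADPH metabolism, 1 point per array, on a log2 scale relative to the 75th percentile of the array (blue circles, Control+Sham; red triangles, DM+Sham). Pdk4 and Atp12a move far to the right in DM+Sham, Fads1 and Akr1b1 far to the left, and the points of Slc5a2 and Prkaa1 overlap.

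Genes of fatty acid oxidation and of the nuclear receptor PPAR-alpha rose more often than they fell, 9 against 2 of 50 tested, with a median difference of 0.29. The share called was 22%, beside 15% over all genes. Cpt1b, which carries fatty acids into mitochondria, was at 0.90, 0.78 and 0.92 against 2.58, 2.69 and 2.70 (1.77, SE 0.09, adjusted p = 0.0017). Angptl4, an inhibitor of lipoprotein lipase, stood at 1.77, 1.92 and 1.58 against 3.08, 3.10 and 3.09 (1.32, SE 0.12). The omega-hydroxylase Cyp4a1 rose by 1.32, the fatty acid carrier Fabp4 by 1.31, the scavenger receptor Cd36 by 1.18 and Cpt2 by 0.83. Ehhadh and Vnn1, both targets of PPAR-alpha, rose by 0.60 and 0.74. The liver-type carrier Fabp1 fell by 1.12 and Hadhb, of the mitochondrial trifunctional protein, by 0.54. Cpt1a was at 0.45 (adjusted p = 0.035) and was not called under all 3 scalings. The monocarboxylate carriers Slc16a1 (-0.80) and Slc16a4 (-1.13) fell. Of the 11 oxidation calls, 3 stayed without Control+Sham 1 and 6 without Control+Sham 2, and neither monocarboxylate carrier stayed called in either case.

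Of 26 genes of fatty acid synthesis 6 fell and 2 rose, or 30.8% beside 15% called over all genes. Their median difference was -0.0066. Fads1, the delta-5 desaturase, was at 0.69, 0.74 and 0.61 against -2.63, -2.75 and -2.75, a 10.3-fold fall (-3.37, SE 0.08, adjusted p = 0.00054). Scd2, a delta-9 desaturase, stood at 3.31, 3.39 and 3.22 against 0.88, 1.09 and 1.09 (-2.32, SE 0.10). Fatty acid synthase (Fasn) stood at 1.83, 1.78 and 1.74 against 0.24, 0.31 and 0.32 (-1.50, SE 0.07). The desaturases Scd (-1.73) and Fads2 (-0.76) and the lipogenic regulator Thrsp (-1.77) fell as well, so that desaturases and the synthase itself made up most of the falls. Dgat2, which makes triglycerides, rose by 0.68 and Acacb, named above, was the other rise. Leaving out Control+Sham 1 kept 3 of the 8 calls, Control+Sham 2 kept 5 and DM+Sham 1 kept 4.

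Of 34 genes of cholesterol synthesis and transport, 15 fell and 2 rose, or 50% beside 15% called over all genes. Their median was -0.30. Abca1, the cholesterol exporter, stood at -0.64, -0.32 and -0.85 against -2.30, -2.17 and -2.18 (-1.64, SE 0.18). Among the synthesis enzymes that fell were Lss at -1.16, Cyp51 at -0.95, Idi1 at -0.86, Sc5d at -0.77, Fdps at -0.76 and Sqle at -0.75. The sterol sensor partner Insig1 (-1.59) and the sterol carrier Stard4 (-1.20) were also lower. Tm7sf2, a sterol reductase, rose by 0.95 and the lipoprotein lipase Lpl by 0.75. Of the 17 calls, 3 stayed without Control+Sham 1, 5 without Control+Sham 2 and 8 without DM+Sham 1.

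Genes of bile acid handling had 8 of 21 higher and 2 lower, or 47.6% beside 15% called over all genes. Their median was 0.43. Slc27a5, which activates bile acids with coenzyme A, was at -0.14, -0.20 and -0.36 against 1.84, 1.96 and 1.96 (2.13, SE 0.10, adjusted p = 0.0016). Baat, which then joins them to glycine or taurine, stood at 0.09, 0.09 and 0.01 against 1.84, 1.89 and 1.89 (1.80, SE 0.07). The bile salt export pump Abcb11, a gene best known from liver, stood at -3.77, -3.81 and -3.84 against -1.91, -1.84 and -1.81 (1.94, SE 0.07). These 3 genes act in sequence in the liver, and all 3 rose by at least 3-fold here. The uptake carrier Slc10a2 (1.26), the exporter Abcc3 (1.09) and the repressor Nr0b2 (0.73) rose, and Slco1a4 fell (-0.71) beside Slco1a1. Of the 10 calls, 5 stayed without Control+Sham 1, without Control+Sham 2 and without DM+Sham 1, each in turn.

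Carriers of organic ions and drugs moved both ways, with 6 of 37 higher and 8 lower, or 37.8% beside 15% called over all genes. Slc22a7 (OAT2) was at -1.74, -1.80 and -1.54 against 1.02, 1.30 and 1.27, a 7.18-fold rise (2.84, SE 0.13, adjusted p = 0.0015). Slc22a2 (OCT2), the basolateral entry of organic cations, went down from 1.84, 1.99 and 1.46 to -0.14, -0.93 and -0.93 (-2.30, SE 0.30). DM+Sham 1 held the highest Slc22a2 level of its group, and still lay below all Control+Sham arrays. The apical cation exporter Slc47a1 fell by 0.54, the thyroid hormone carrier Slco4a1 by 2.09 and the urate exporter Abcg2 by 0.83. The drug efflux pump Abcb1b rose by 1.67, with its second probe at 2.92, and the prostaglandin carrier Slco2a1 by 1.51. Among 33 xenobiotic genes 6 rose and 9 fell, or 45.45% beside the same 15%. Ahrr, the repressor of the aryl hydrocarbon receptor, was at -2.62 (SE 0.11), opposite to Cyp1a1. In these 37 carriers 6 of the 14 calls stayed without Control+Sham 1, 6 without Control+Sham 2 and 8 without DM+Sham 1, and of the 15 xenobiotic calls 4, 6 and 9.

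Of 27 genes of arachidonic acid metabolism 4 rose and 9 fell, or 48.15% beside 15% called over all genes. The epoxygenases Cyp2j3 (-0.90), Cyp2j4 (-0.68) and Cyp2j10 (-0.68) fell beside Cyp2c11, and the omega-hydroxylases Cyp4a1 and Cyp4f4, named above, rose. Both cyclooxygenases fell, Ptgs1 by 0.79 (its second probe at -0.04) and Ptgs2 by 0.68. The prostaglandin D synthase Ptgds (-1.52, SE 0.09) and Hpgd, which breaks prostaglandins down (-1.28, SE 0.10), were lower too. Probes of Cyp families with near-identical members may cross-hybridise. Leaving out Control+Sham 1 kept 3 of the 13 calls, and Control+Sham 2 or DM+Sham 1 kept 6.

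Intercalated cells, which secrete acid, base and ammonia in the collecting duct, had 8 of 14 markers higher and none lower, with a median of 0.69. These calls were 57.1% of the list, beside 15% called and 7.06% higher over all genes. The transcription factor Foxi1, which specifies these cells, was at 2.62, 2.61 and 2.64 against 3.22, 3.31 and 3.32 (0.64, SE 0.07). The basolateral anion exchanger Slc4a1 stood at 2.52, 2.53 and 2.35 against 3.35, 3.46 and 3.45 (0.93, SE 0.10). The ammonia carriers Rhcg and Rhbg rose by 0.76 and 0.75, the receptor Kit by 1.08, the transcription factor Hmx2 by 1.05 and the aquaporin Aqp6 by 0.89. The proton pump subunits Atp6v1b1 (0.21) and Atp6v0d2 (0.22) were not called. All 14 markers lay well above background on all 6 arrays, and their summed level was 33.1 to 34.8 in Control+Sham and 51 to 53.9 in DM+Sham. In a bulk sample more cells of a type and more RNA per cell cannot be told apart. None of the 8 calls stayed without Control+Sham 1 or without Control+Sham 2, and 2 stayed without DM+Sham 1.

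In the wider lists, acid-base transport had 7 of 31 higher and none lower, and ammoniagenesis 5 of 18 higher and 2 lower. These were 22.6% and 38.9% called, beside 15% over all genes. Slc9a3, the sodium-proton exchanger of the proximal tubule, rose by 0.96 while its second probe was at -0.17. Prodh, which starts the breakdown of proline, was at 2.44, 2.36 and 2.59 against 3.97, 3.89 and 3.89 (1.47, SE 0.10, its second probe at 2.04), and the glutaminase Gls2 rose by 0.82. Slc38a3, which brings glutamine into the cell for ammonia production, fell by 0.76 (SE 0.15, adjusted p = 0.032). Amino acid carriers were split, 4 of 28 higher and 4 lower, with the taurine carrier Slc6a6 at 1.00, Slc1a5 at 0.95, the neutral amino acid carrier Slc6a19 at -0.98 and Slc1a4 at -1.31. Of the 7 acid-base calls and the 7 ammoniagenesis calls, 1 each stayed without Control+Sham 1 or Control+Sham 2, and 2 each without DM+Sham 1, while 0 of the 8 amino acid calls stayed without Control+Sham 1 and 1 without Control+Sham 2.

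The enzymes of vitamin D moved apart. Cyp24a1, which inactivates the hormone calcitriol, was at -4.66, -4.40 and -4.90 against -1.81, -1.69 and -1.70, a 7.47-fold rise (2.90, SE 0.17, adjusted p = 0.0023). Cyp27b1, which makes calcitriol, stood at -1.41, -1.55 and -1.34 against -2.51, -2.63 and -2.62 (-1.14, SE 0.10). Stc2 and Stc1, stanniocalcins, which act on phosphate and calcium transport, rose by 2.29 and 1.09. Of the calcium genes, the channel Trpv5 rose by 0.90, the calcium-binding protein S100g by 1.00 and Cldn14, a claudin that limits calcium reabsorption in the thick ascending limb, by 2.13 (SE 0.10). The receptor Cubn rose by 0.61, and Clcn5, of the endosome, fell by 0.70. The phosphate carrier Slc34a1 (0.14), Kl, which encodes klotho (0.44), and the megalin gene Lrp2 (-0.07) did not pass the test. In the distal sodium, calcium and magnesium list 5 of 32 rose and none fell, or 15.6% beside 15% called and 7.06% higher over all genes. Among the rises were the sodium channel subunits Scnn1a (1.19) and Scnn1b (0.86). None of these 5 calls stayed without Control+Sham 1 or Control+Sham 2, while 3 of the 6 endocytosis and vitamin D calls did.

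Claudins and other tight junction genes had 3 of 22 higher and 2 lower, or 22.7% beside 15% called over all genes. Beside Cldn14, the barrier-forming Cldn1 rose by 1.42 (SE 0.12) and occludin (Ocln) by 1.05, while Cldn3 fell by 1.27 (SE 0.07) and Cldn22 by 1.24. Of 28 transcription factors of the nephron 7 rose and 0 fell, or 25%, with a median of 0.29. These included the orphan receptors Esrrb (1.38) and Esrrg (0.64) and the developmental regulator Sall1 (0.85), while Hnf4a (0.29) of the proximal tubule was not called. Of 22 genes that corticosteroids regulate or that act on them 4 rose and 1 fell, again 22.7%. Among the rises were Zbtb16, a strongly steroid-responsive gene, at 1.62 (SE 0.12) and Fkbp5 at 0.67. Of the 5 tight junction calls 3 stayed without Control+Sham 1 and 4 without Control+Sham 2. Of the 7 transcription factor calls 0 stayed without Control+Sham 1 or DM+Sham 1 and 1 without Control+Sham 2, and of the 5 corticosteroid calls 0, 2 and 1 did.

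More clock genes rose than fell, and Bmal1 was among those that fell. In the circadian loop Bmal1 and its partners drive Per, Cry, Nr1d and Dbp genes, whose products act back on it. Of 21 genes tested, 10 rose and 3 fell, or 61.9% beside 15% called over all genes. Their median was 0.37. Bmal1 was at 1.22, 1.1 and 1.08 against -0.17, -0.04 and -0.04 (-1.24, SE 0.09, adjusted p = 0.0036). Npas2, which can replace Clock as the partner of Bmal1, fell by 1.69 (SE 0.08), with its second probe at -0.16, and the repressor Nfil3 fell by 1.30. The output factors Tef and Dbp rose by 1.75 and 1.43, and Dbp rose on all 3 of its probes (1.78 to 1.79 on the other 2). Per2 stood at -0.32, -0.36 and -0.27 against 1.05, 1.06 and 1.06 (1.37, SE 0.07). Per3 (1.31), Nr1d2 (1.20), Ciart (1.13), Usp2 (1.09), Cry2 (0.91), Wee1 (0.90) and Bhlhe40 (0.59) were higher as well. The sources used here do not give the hour of collection, and its part in the result was not tested. Of the 13 calls, 5 stayed without Control+Sham 1, 6 without Control+Sham 2 and 8 without DM+Sham 1.

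The promoters of 3 risen clock genes are shown, since the clock factors are known to bind the E-box and the D-box. RefSeq sequences of the build GRCr8 were searched over the 250 bases before the start, on both strands, for the E-box CACGTG and for the D-box TTATGNAA, and 17 clock genes had an entry. The E-box was found in 3 of 9 risen clock genes, 0 of 3 fallen and 1 of 5 that did neither, beside 5.59% of all promoters. The D-box was found in 1 of 9 risen genes, 0 of 3 fallen and 0 of 5 that did neither, beside 3.28%. Here and for the motifs below, a gene counted where any of its promoter entries held the letters, while the percentage is over all entries. Capitals mark the element.
Ciart, E-box, chr2:186112247-186112376, minus strand: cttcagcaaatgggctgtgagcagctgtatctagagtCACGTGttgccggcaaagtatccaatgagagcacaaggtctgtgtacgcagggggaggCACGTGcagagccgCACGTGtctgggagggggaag
Tef, E-box, chr7:115206597-115206676, plus strand: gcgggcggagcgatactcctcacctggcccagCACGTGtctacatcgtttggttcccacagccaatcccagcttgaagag
Per2, D-box, chr9:99497134-99497213, minus strand: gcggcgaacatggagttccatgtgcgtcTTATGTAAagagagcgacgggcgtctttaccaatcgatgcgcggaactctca
Ciart carried 3 E-boxes within 130 bases of its start. A match is a description of the letters and not of a bound factor.

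Immediate early genes, whose transcription answers a stimulus without new protein synthesis, were mostly lower. Of 38 tested, 23 fell, 1 rose and 14 did neither, with a median of -1.05. The share called was 63.2%, beside 15% over all genes. Nr4a3, an orphan nuclear receptor, was at -0.08, 0.03 and -0.11 against -2.92, -2.75 and -2.75 (-2.78, SE 0.09, adjusted p = 0.00097). Nr4a2 (-2.05) and Nr4a1 (-1.33) of the same family fell too. Fos stood at -0.88, -0.98 and -1.0 against -2.30, -2.26 and -2.23 (-1.32, SE 0.08), Jun fell by 1.29 and Junb by 1.05. Jund ran against the list, at 0.78, 0.66 and 1.12 against 4.47, 4.59 and 4.58 (3.68, SE 0.16), and rests on 1 probe. The phosphatase Dusp1 (-0.83), the growth inhibitor Btg2 (-1.44), the signal brake Rgs1 (-2.10), the kinase Sik1 (-1.13) and the regulator Ier2 (-1.05) were among the others that fell. Within the 2 scan days that held both groups, the median of the list was -1.02 and -0.94. With 23 of 38 fallen and no overlap in their arrays, the sign of these medians was fixed beforehand and tests nothing. Of the 24 calls, 13 stayed without Control+Sham 1, 16 without Control+Sham 2, 17 without DM+Sham 1 and 22 without Control+Sham 3.

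Some of these genes carry the cyclic AMP response element TGACGTCA close to their start, and 3 of the fallen genes are shown for it. The letters were found in 3 of 16 fallen genes with a promoter entry and in 1 of 10 that did neither, beside 1.59% of all promoters, and also in Jund, which rose. Capitals mark the element.
Ier2, chr19:40399253-40399372, plus strand: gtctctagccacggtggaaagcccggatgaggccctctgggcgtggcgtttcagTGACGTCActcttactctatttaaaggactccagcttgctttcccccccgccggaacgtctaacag
Dusp1, chr10:17184693-17184772, plus strand: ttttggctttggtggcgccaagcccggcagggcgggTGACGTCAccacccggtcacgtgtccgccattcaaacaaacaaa
Btg2, chr13:48087841-48087920, minus strand: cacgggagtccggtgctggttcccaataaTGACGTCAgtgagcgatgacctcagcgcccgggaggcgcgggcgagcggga
The element begins 66 bases before the start in Ier2, 124 in Dusp1 and 201 in Btg2.

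Of 42 interferon-stimulated genes, the antiviral response that type I interferon switches on, 20 fell and 1 rose, with a median of -0.49. These calls were 50% of the list, beside 15% called over all genes. Irf7, the factor that amplifies the response, was at 0.77, 0.70 and 0.84 against -0.93, -0.82 and -0.87 (-1.65, SE 0.08, adjusted p = 0.0016). Ifit3, of a family that restricts viral RNA, stood at -0.69, -0.60 and -0.80 against -2.50, -2.48 and -2.50 (-1.80, SE 0.09). The chemokine Cxcl10 stood at 2.70, 2.66 and 2.70 against 1.12, 1.01 and 1.02 (-1.62, SE 0.08). The ubiquitin-like modifier Isg15 (-1.83) and the antiviral GTPase Mx1 (-1.80) had falls of about that size. The guanylate-binding proteins Gbp2 (-1.18) and Gbp5 (-0.85), the oligoadenylate synthase family members Oasl (-1.69), Oasl2 (-0.55) and Oas1a (-0.51), the RNA sensor Ifih1 (-0.98) and Ifi44l (-0.90) fell. Ifit1 was not well above background in Control+Sham and at least 1.98-fold higher in DM+Sham, which made it the single rise. Mx2 and Rsad2 were among the 21 not called. Of the 21 calls, 9 stayed without Control+Sham 1, 11 without Control+Sham 2 and 13 without DM+Sham 1.

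The interferon-stimulated response element, searched on both strands as TTTC, any 2 bases and TTTC again, was found in 10 of 15 fallen genes with a promoter entry. It was also found in 10 of 18 genes of the list that were not called, beside 3.41% of all promoters. Promoters of 5 fallen genes are shown for it, with the element in capitals.
Ifit3, chr1:241527226-241527325, plus strand: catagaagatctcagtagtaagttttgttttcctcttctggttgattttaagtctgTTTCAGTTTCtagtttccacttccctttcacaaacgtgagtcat
Gbp2, chr2:234005627-234005726, plus strand: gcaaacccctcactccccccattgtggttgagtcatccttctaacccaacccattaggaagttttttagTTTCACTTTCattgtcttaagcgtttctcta
Irf7, chr1:205800024-205800143, minus strand: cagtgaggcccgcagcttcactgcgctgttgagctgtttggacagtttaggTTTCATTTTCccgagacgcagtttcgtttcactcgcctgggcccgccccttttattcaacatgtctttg
Ifi44l, chr2:243328603-243328722, plus strand: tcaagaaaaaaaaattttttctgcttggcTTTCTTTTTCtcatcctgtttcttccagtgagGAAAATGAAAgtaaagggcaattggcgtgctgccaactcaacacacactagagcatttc
Oas1a, chr12:41330366-41330465, plus strand: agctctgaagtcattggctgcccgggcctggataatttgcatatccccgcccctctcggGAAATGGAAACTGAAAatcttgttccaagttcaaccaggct
The element lies 31 bases before the start in Gbp2, 44 in Ifit3 and 69 in Irf7, and Oas1a carries 2 overlapping copies on the other strand, 41 and 35 bases before the start.

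**Figure D4:**
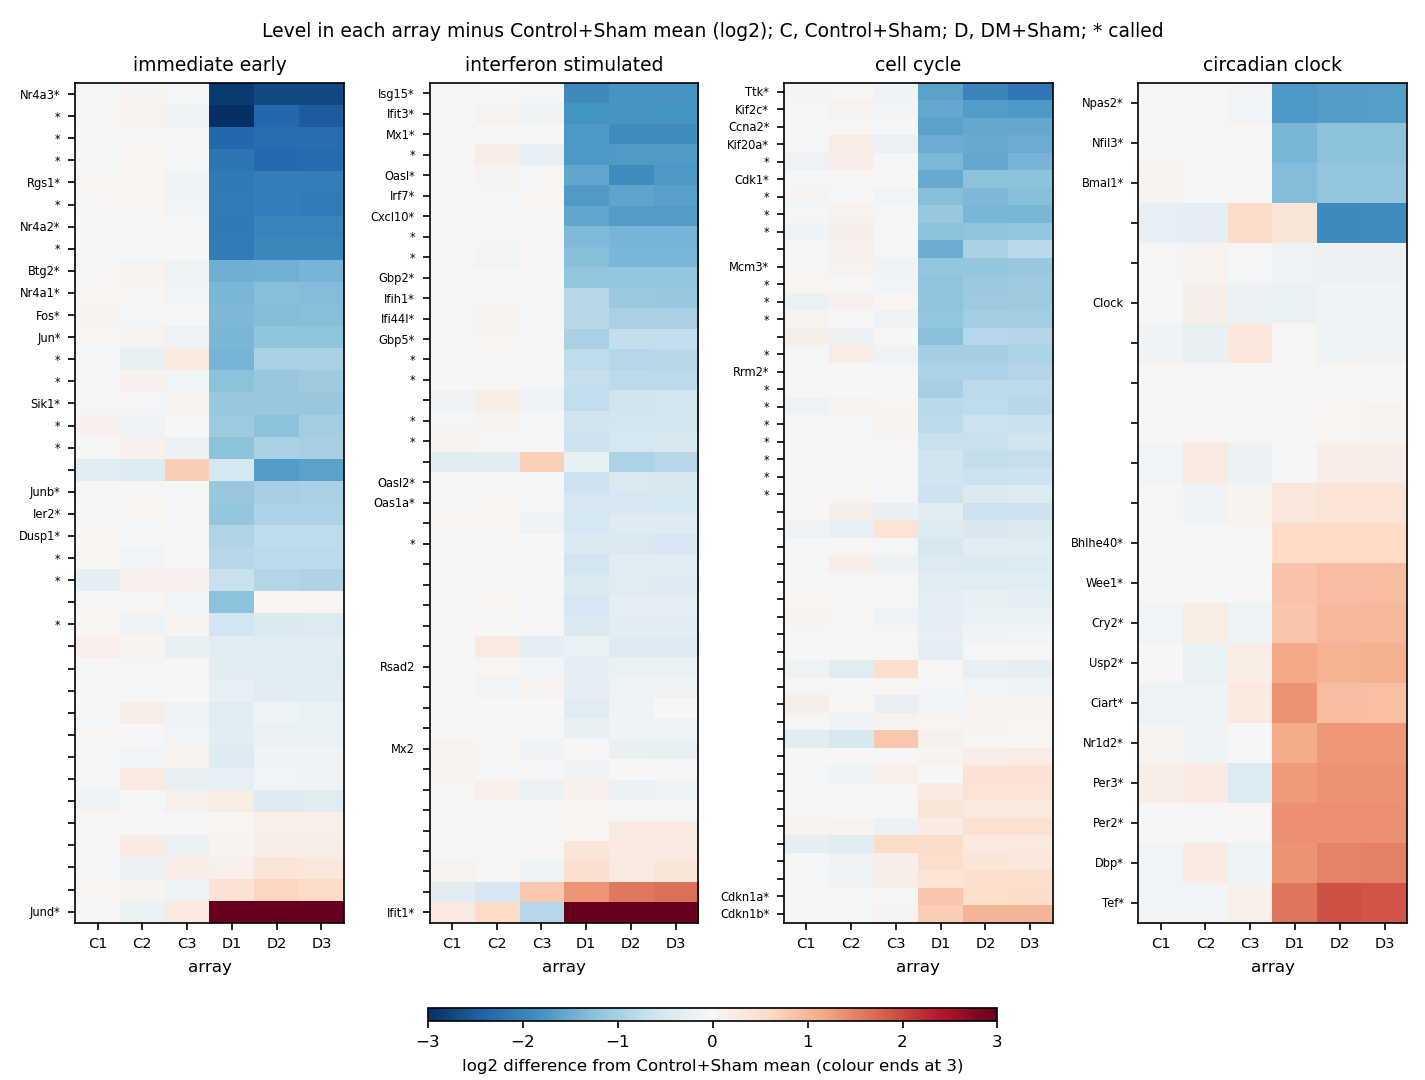
Level of tested members of 4 gene lists in each of the 6 arrays, with names for those described in the text, minus the Control+Sham mean, on a log2 scale (blue, lower; red, higher; an asterisk marks a called gene). The DM+Sham arrays are blue for most immediate early, interferon and cell cycle genes, with Jund and Ifit1 as red exceptions, and red for 10 called clock genes.

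Chemokines and cytokines had 15 of 53 lower and 3 higher, or 34% beside 15% called over all genes. Their median was -0.37. Cxcl2, a neutrophil attractant, was at -1.21, -1.26 and -1.19 against -5.29, -5.08 and -4.97, a 15.3-fold fall (-3.94, SE 0.11, adjusted p = 0.00064). Cxcl1 (-2.42), Ccl2 (-2.02), Ccl7 (-1.99) and Il1b (-1.30) fell as well, whereas the alarmin Il33 rose by 1.12 and the lymphoid chemokine Ccl21 by 1.00. Of 16 T and B cell markers 3 fell and none rose, or 18.75% beside 15% called and 7.92% lower over all genes. The granzyme Gzmb led the falls (-2.28), and the summed level of these markers was 2.47 to 2.76 in Control+Sham and 1.92 to 2.01 in DM+Sham. Of 15 macrophage markers 3 rose and 2 fell, or 33.3%. The scavenger receptors Cd163 (2.28) and Msr1 (0.71) and the mannose receptor Mrc1 (0.86) rose, while Adgre1 (-0.58) and Aif1 (-0.61) fell, and the summed level of the list was 31.4 to 40.2 against 26.9 to 35.5. The part of immune cell numbers in the chemokine result was not tested. Of the 3 T and B cell calls 1 stayed without Control+Sham 1. Of the 5 macrophage calls 1 stayed without Control+Sham 1, Control+Sham 2 or DM+Sham 1, and of the 18 chemokine and cytokine calls 7 stayed without Control+Sham 1, 9 without Control+Sham 2 and 9 without DM+Sham 1.

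Of 48 cell cycle genes 22 fell and 2 rose, or 50% beside 15% called over all genes. Their median was -0.49. Ccna2, a cyclin of DNA synthesis, was at -1.61, -1.60 and -1.69 against -3.23, -3.17 and -3.18 (-1.57, SE 0.07, adjusted p = 0.0016). The mitotic kinase Cdk1 stood at -0.71, -0.60 and -0.67 against -2.16, -1.90 and -1.88 (-1.37, SE 0.11). The spindle kinase Ttk (-1.83), the motors Kif2c (-1.62) and Kif20a (-1.50) and the replication factor Mcm3 (-1.17) fell, so genes of both DNA synthesis and mitosis were among them. Rrm2, of the nucleotide-making reductase, fell by 0.92 with its second probe at 0.48. Both rises were inhibitors of the cycle, Cdkn1b (p27) by 0.89 and Cdkn1a (p21) by 0.68. Of the 24 calls, 7 stayed without Control+Sham 1, 11 without Control+Sham 2 and 15 without DM+Sham 1.

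Of 32 genes used as kidney injury markers 11 fell and 1 rose, with a median of -0.34. These calls were 37.5% of the list, beside 15% called and 7.92% lower over all genes. Tff3, named above, and Krt20, also a urothelium marker, were among the falls, so the list shares members with others. Havcr1 (KIM-1), a protein shed by injured tubule cells, was at -0.17, -0.12 and -0.19 against -0.81, -0.73 and -0.73 (-0.62, SE 0.07, adjusted p = 0.01). Lcn2, which encodes NGAL, was at -4.60, -4.84 and -4.69 against -4.54, -4.68 and -4.64 and did not pass (0.11, adjusted p = 0.49). Spp1 (0.30) and Umod (0.24, SE 0.30) were not called either. Of 48 matrix and fibrosis genes 14 fell and 2 rose, or 33.3% beside 15% called over all genes. Col1a1 stood at 1.14, 1.1 and 1.21 against 0.25, 0.15 and 0.15 (-0.95, SE 0.08), its second probe at -0.42, and Col3a1 fell by 0.92. Col4a4, a chain of the glomerular basement membrane, fell by 1.82 (SE 0.08), Lum by 2.0 and the fibroblast protein S100a4 by 1.11. Tgfb2 rose by 1.61, its second probe at 0.19, and the BMP antagonist Grem1 by 0.72. Col4a1 (-0.63), Fn1 (-0.46), Tgfb1 (-0.26) and Ccn2 (-0.25) were not called under all 3 scalings. Of the 12 injury calls 5 stayed without Control+Sham 1, Control+Sham 2 or DM+Sham 1, and of the 16 matrix calls 4, 6 and 8 did.

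Of 21 podocyte and glomerular genes 2 rose and 2 fell, or 19.05% beside 15% called over all genes. The podocyte transcription factor Wt1 rose by 0.70, and the channel Trpc6 fell by 0.61 beside Col4a4. The slit diaphragm gene Nphs1 (-0.18, its second probe at 0.15) did not pass the test. In the list of the angiotensin system 2 of 26 fell and none rose, or 7.69% beside 7.92% lower over all genes. Angiotensinogen (Agt) was at 1.22, 1.14 and 1.03 against 0.10, 0.16 and 0.16 (-1.0, SE 0.09), while Ace (-0.31) and Agtr1a (-0.15) were not called. Of 33 genes of insulin and IGF signalling 2 rose and 4 fell (18.2%). The insulin receptor Insr rose by 0.85, with its second probe at 1.03, and the binding protein Igfbp4 was at 3.31, 3.32 and 3.37 against 0.95, 1.17 and 1.18 (-2.27, SE 0.10), while Irs2 (-0.02) and Igf1 (-0.51) did not pass. Vegfa was at 0.42 (adjusted p = 0.027) and was not called under all 3 scalings. Without Control+Sham 1 or Control+Sham 2, 1 of the 4 glomerular and 0 of the 2 angiotensin system calls stayed, and of the 6 insulin and IGF calls 1 and 2 did.

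**Figure D5:**
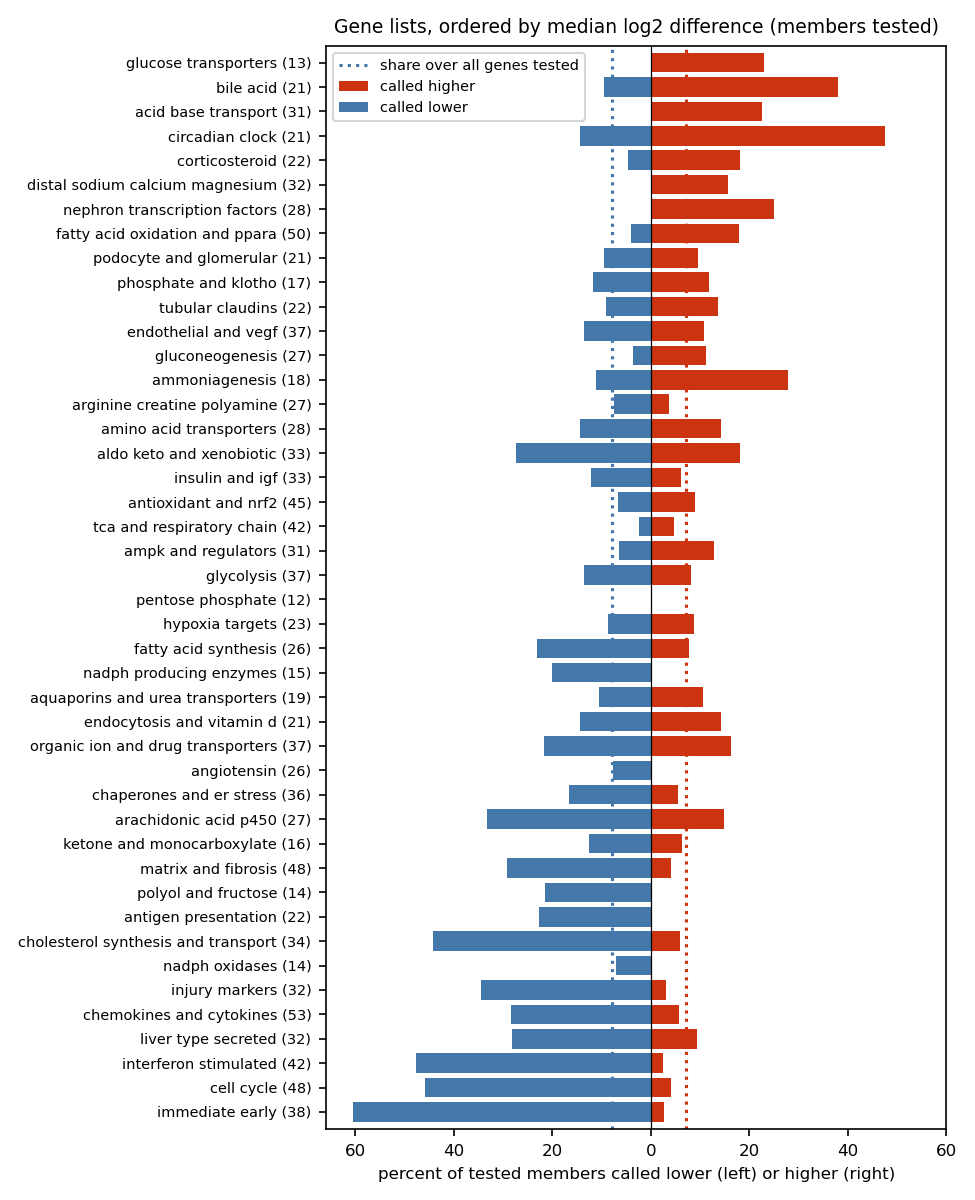
Share of the tested members of each gene list, other than the lists of cell type markers, that were called higher (red, right) or lower (blue, left) in DM+Sham, in percent, ordered by the median log2 difference, with dotted lines at the shares over all genes tested (7.06% and 7.92%). Among the lists drawn, those of immediate early, cell cycle and interferon genes reach furthest to the left, and the clock list furthest to the right.

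Markers of other cell types differed between the groups. Of 13 urothelium markers tested 7 fell and none rose, or 53.85% beside 15% called and 7.92% lower over all genes. Their median was -1.89. The uroplakins Upk3a (-0.29, -0.20 and -0.29 against -4.54, -4.51 and -4.48), Upk1a (-2.71) and Upk1b (-2.80, its second probe at -0.67) fell beside Upk2, Krt15, Fgfbp1 and Krt20 (-1.89). The keratins Krt5 (-0.63, SE 0.50), Krt14 (-0.27) and Krt7 (-0.20) were not called. The basal factor Tp63 differed by 0.32 and was not called, while its second probe differed by -4.29. The summed level of the 13 markers was 8 to 8.39 in Control+Sham and 4.45 to 4.51 in DM+Sham, and 8 were well above background on all 6 arrays. Tp63, through its brighter probe, made the largest single part of that sum. All 7 calls stayed without each array in turn. The part of urothelium in the tissue taken was not tested.

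Of 17 liver markers 7 fell and 1 rose, or 47.1% beside 15% called over all genes. The albumin gene Alb was at 1.1, 1.19 and 0.54 against -2.18, -2.21 and -2.20 (-3.14, SE 0.23, adjusted p = 0.0034). Haptoglobin (Hp) fell by 1.41, the fibrinogen chain Fgg by 0.85, and Gc and Cyp2c11, named above, are members too, while the fibrinogen chain Fgb rose by 0.75. In a wider list of liver-type secreted proteins 9 of 32 fell and 3 rose, or 37.5%. Among the falls were complement factor Cfb (-2.20), the protease inhibitor Pzp (-1.82) and C4a (-1.25). The summed level of the liver markers, of which the marker Tf made the largest part, was 25.4 to 32 against 19.4 to 19.9. Kap, a proximal tubule gene named for its response to androgen, was at 5.58, 5.65 and 5.10 against 3.49, 3.53 and 3.55 (-1.93, SE 0.20). The other proximal tubule calls were rises, Cyp2e1 by 1.01 and Cubn as above. Of the 8 liver calls, 4 stayed without Control+Sham 1 and 5 without Control+Sham 2 or DM+Sham 1.

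Of 6 red blood cell markers 3 rose and 1 fell, or 66.7% beside 15% called over all genes. Their median was 1.20. Alas2, the haem synthesis enzyme of red cell precursors, rose by 1.58, the haemoglobin chaperone Ahsp by 1.55 and Hemgn by 3.22. Hbb was at 3.78, 3.83 and 3.50 against 4.94, 4.18 and 4.19 and did not pass (0.86, adjusted p = 0.081), with its second probe at 2.24. The summed level of the list, of which Hbb made the largest part, was 12.3 to 15.3 in Control+Sham and 19.4 to 31.9 in DM+Sham, DM+Sham 1 being the highest. Of 8 fat markers 3 rose and 1 fell, or 50%. Retn, which encodes resistin, was at -2.95, -3.18 and -3.05 against -6.04, -6.24 and -6.08 (-3.04, SE 0.10). The summed level of the fat markers was 5.1 to 5.45 against 5.24 to 5.84. Of 13 markers of heart and skeletal muscle limma called 0, with 2 at an unadjusted p under 0.05 and 1 called with the 75th percentile alone, and their summed level was 1.21 to 1.43 against 1.61 to 1.65. The part of blood or of other tissue in any other result was not tested. Of the 4 red cell calls 1 stayed without Control+Sham 1 or DM+Sham 1, and of the 4 fat calls 2 did.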

How the data were processed

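The deposited scanner files hold spot signal intensities that, per the file headers, were extracted with Agilent Feature Extraction 11.0.1.1, with background subtraction and spatial detrending. Of 44254 spots, 1377 were controls. Spots of a probe were averaged to 30367 probes, of which 17997 were named through RefSeq accessions and 12370 were not. Each array's log2 signals were set relative to its 75th percentile, and probes that 2 or more arrays placed well above background were tested with limma 3.58.1 (R 4.3.3) by lmFit and eBayes (Benjamini-Hochberg adjustment over all 23779 genes and unnamed probes, 3 residual degrees of freedom). A gene with several probes was represented by the brightest. A gene not well above background on any array of a group was given a bound. The authors' deposited table holds log2 values that share 1 distribution, and was used as an alternative only, since its normalization is not described here.

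DM+Sham 2 and 3 were averaged as 1 sample. Same-numbered arrays of the 2 groups correlated at -0.378, 0.335 and -0.41 in their deviations from the group means, so the numbers were not taken as pairs. On simulated data for this comparison, 44% of genes changed by 1 and 65% of genes changed by 2 on the log2 scale were recovered. There were 12 false calls among the unchanged genes of the 23779. The simulation drew independent values and did not apply the demand for 3 scalings. It therefore does not give the recovery or error of the calls in the text. The genes named are the 15 largest rises and falls with separate groups, the called genes of smallest p in every list (5 at most), and a fixed set of kidney and metabolic genes. Some genes that these rules name are not reported here. Other members were added as examples after their values were seen. Members and lists were chosen with earlier results of these data known. The promoter motifs shown were chosen after a wider search that included motifs with few or no matches. Alternatives covered background correction, scaling, filters, probe choice, the sample unit, blocks, moderation and leaving out each array.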

Additional observations from a re-analysis of the deposited data

How the results depend on the processing

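All 3562 calls kept their direction under each alternative run that measured them, except 70 with normexp background correction and 5 with the mean over the probes of a gene. For each scaling alone the direction was fixed beforehand, since a call demands the same sign under all 3. It was also fixed where arrays were left out, averaged or kept separate, since the arrays of a called gene did not overlap. In those runs the direction tests nothing. The number of calls moved more. It was 1381 with normexp (604 higher, 777 lower), 6069 with the 75th percentile alone (3550 higher, or 58.5% of the calls against 47.1% under the 3 scalings), 5530 with quantile scaling alone (3120 higher, 56.4%) and 5804 with the deposited table (3283 higher, 56.6%). With all 6 arrays as separate samples it was 7305 (3842 higher, 3463 lower), and with Control+Sham 1 and 2 averaged as well it was 864 (295 higher, 569 lower). The mean over probes turned Tp63, which was not called, from 0.32 to -1.99. With array weights 2829 were lower. The demand for a 2-fold change left 1490 (628 higher, 862 lower). Leaving out each array in turn gave 631 to 3959 calls, 186 to 1960 of them higher and 445 to 1999 lower. The fit with the replicate block, whose numbers do not pair the samples, gave 3355 calls over 6 separate arrays. With the scan day as a block limma made 0 calls, 0 higher and 0 lower, with 4777 genes at an unadjusted p under 0.05. A shared-slide block could not be fitted, since each of the 6 arrays had a scan of its own. The median difference of all genes was 0.06, -0.03 and 0.04 under the 3 scalings, less than 0.1 apart, and signal over background limited the genes given as bounds.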

Other observations

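Some secreted proteins of other glands fell in DM+Sham, in lists that were put together after the values were seen, beside 7.92% of all genes that fell. Of 23 genes of the exocrine pancreas 7 fell and 0 rose, with a median difference of -1.16. The trypsinogen Prss1 was at -1.14, -1.15 and -2.84 in Control+Sham and at -5.63, -5.45 and -5.25 in DM+Sham. Its level in Control+Sham 3 was the lowest of that group and still above all DM+Sham arrays. The carboxypeptidases Cpb1 (-3.95, SE 0.57) and Cpa1 (-2.58, SE 0.54) and the acinar transcription factor Bhlha15 (-1.99, SE 0.12) fell, while the lipase Pnlip (0.70) was not called. Of 11 major urinary proteins and related lipocalins 6 fell and 0 rose. Mup5 (-2.92), Mup4l1 (-3.49) and the odorant-binding protein Obp3 (-2.82) were among them, and Paep was at -0.84, -0.64 and -0.88 against -4.90, -4.85 and -4.83. Probes for near-identical members of the urinary protein and kallikrein families may cross-hybridise. Of 7 glandular kallikreins 4 fell and 0 rose, led by Klk1c10 (-3.67) and Klk1c9 (-2.84).

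Of 7 globin genes, in another list put together after the values were seen, 5 rose and 0 fell, with a median of 1.49, beside 7.06% of all genes that rose. The alpha globin gene Hba-a1 rose by 2.05 and the beta globin gene Hbb-b1 by 1.49. Near-identical copies within the alpha or within the beta family may not be measured apart. The summed level of the red blood cell markers was higher in every DM+Sham array than in any Control+Sham array. Hbb, which is in both lists and was not called, made the largest part of that sum. The part of blood in these values was not tested.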
